A study of Mus musculus with 200 samples.

Results

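Epiblast was profiled from mouse embryos in which Cxxc1 was targeted, in 3 libraries labelled Cxxc1 knockout and 3 wild-type control libraries of the same screen batch. The 6 libraries were taken by their labels alone, from 148 libraries of the screen table and 200 in the series. Both groups were labelled epiblast (Epi) at embryonic day (E) 5.0. C-CRISPR, a method that directs several guide RNAs to the same gene, gave the knockouts, and the embryos were cultured through the stages around implantation. Each library came from the polyadenylated RNA of a small pool of cells, amplified by Smart-seq2. The labels call the 3 libraries of a group biological replicates and do not say which embryos gave each. The reported p-values rest on variation among replicate libraries, pooled across the groups of the screen. That variation may be technical. Guide positions and genotypes of single embryos are not given in the sources used here. The batch, number 2 in the sample titles, also held 17 libraries of 6 other knockouts (Ascl2, Elf5, Ets2, Lmo2, Mcrs1 and Suz12), to which the same libraries were compared.

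Cxxc1, also called Cfp1, binds unmethylated CpG dinucleotides (a cytosine followed by a guanine) through a CXXC zinc finger. It is a subunit of the complexes in which Setd1a or Setd1b trimethylates lysine 4 of histone H3 (H3K4) at active promoters. Mouse embryos without Cxxc1 are known to die around implantation. At that time the epiblast leaves the naive pluripotent state of the blastocyst, marked by Nanog and Klf4, for the formative state marked by Otx2, Fgf5 and Pou3f1.

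The targeted gene went against its label. Cxxc1 transcript was at 0.405, 2.63 and 2.15 TPM (transcripts per fixed total of transcripts, a level scaled by transcript length) in the controls. It was at 6.44, 12.5 and 6.64 TPM in the libraries labelled Cxxc1 knockout. The groups did not overlap, and the labelled knockouts were the higher, at 8.54 ± 3.46 against 1.73 ± 1.17 TPM (mean ± SD, n = 3 each). On the log2(TPM + 1) scale the difference was 1.86 (SE 0.58, limma adjusted p = 0.0118). Without control replicate 1 it was 1.44 (adjusted p = 0.109), and without Cxxc1 knockout replicate 2 it was 1.58 (adjusted p = 0.0748). Among the 50 groups of the screen the batch 2 controls ranked 49 by mean Cxxc1 level and the labelled knockouts 18. The groups at ranks 1 and 2, the controls and Bend3 knockouts of batch 8, read 6.0 in their titles, although their stage is given as E 5.0. Against the other knockouts of batch 2 the difference was 0.23 (SE 0.44, adjusted p = 0.768), with those group means at 5.49 to 13.3 TPM. A summed transcript level over the whole gene does not show whether the coding sequence was cut. Every direction given here is that of the libraries labelled Cxxc1 knockout against controls that stood low for this transcript.

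**Figure D1:**
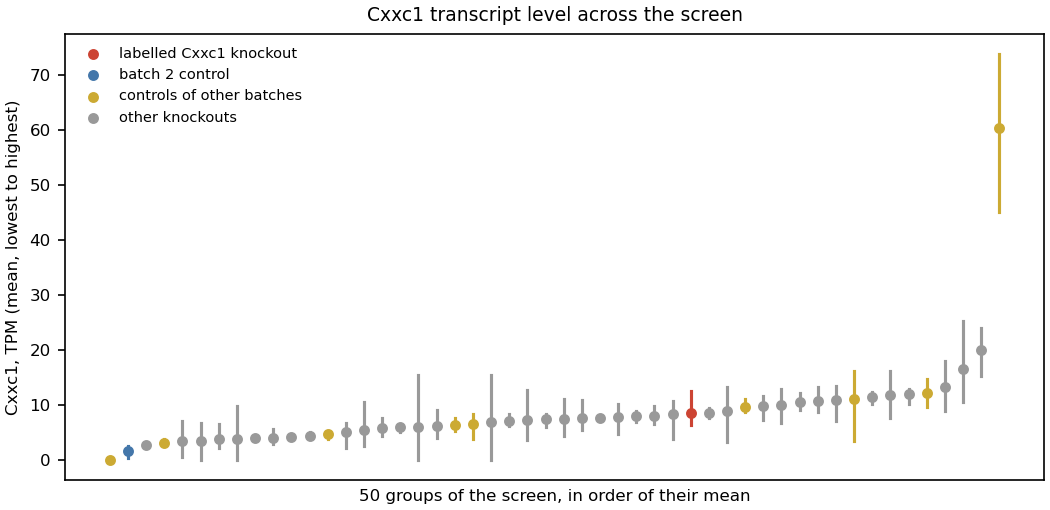
Cxxc1 level in TPM in the 50 groups of the screen, ordered by their mean (points), with lines from the lowest to the highest library of each group. The batch 2 controls, at a mean of 1.73 TPM, lie next to the low end, and the libraries labelled Cxxc1 knockout, at 8.54 TPM, lie among the other groups.

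The tissue label was checked against marker genes. Pou5f1, the core pluripotency factor, was at 19.7 to 35.4 TPM in controls and 21.2 to 33.5 TPM in the labelled knockouts, with overlapping groups. Sox2, its partner, was at 3.72 to 5.44 and 0.261 to 5.75 TPM. Nanog was listed at 0 in all 3 controls. Transcripts of trophectoderm, the outer layer of the embryo, were abundant in both groups of this tissue labelled Epi: Krt18 was at 2173 ± 79 TPM in controls and 2382 ± 162 TPM in the labelled knockouts (SD, n = 3 each). Summed over 20 epiblast and core pluripotency markers, the level was 1936 to 2023 TPM in controls and 1356 to 1446 TPM in the labelled knockouts. Summed over 19 trophectoderm and extraembryonic ectoderm markers, it was 4017 to 4242 and 5577 to 6131 TPM, and over 25 primitive endoderm markers 1071 to 1083 and 1722 to 1799 TPM. Within the former sum, Krt8 gave 1075 to 1091 and 1442 to 1664 TPM, Plac1 66.7 to 104 and 728 to 758 TPM, and Prl3d1 0.767 to 6.46 and 272 to 498 TPM. Of its 17 tested genes 7 rose and 2 fell, and Hand1, Elf5, Eomes and Gata3 did not pass. Esx1 and Tpbpa were at 0 in all 6 libraries. Over 14 decidual, stromal and fibroblast markers it was 159 to 187 and 331 to 357 TPM, of which Cryab gave 146 to 174 and 301 to 342 TPM, while Col3a1, Lum, Pdgfrb, Postn and Prl8a2 were at 0 in all 6. Over 10 blood markers it was 33.9 to 42.0 and 38.8 to 42.4 TPM, with Ptprc and Tyrobp at 0. In RNA from pools of cells, fewer cells of a type and less RNA per cell cannot be told apart. The part that these marker levels have in the differences below was not tested.

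The labelled knockouts differed from the controls across a large share of the transcriptome. The test covered 10611 genes that reached 1 TPM in 3 or more of the 6 libraries, and 2275 (21.4%) passed an adjusted p of 0.05. Of these, 1301 (12.3% of those tested) rose and 974 (9.18%) fell. Of these, 193 rises and 92 falls were under 1 TPM in every library of the lower group, so they entered the test through the other group alone. With a filter on the mean over all screen libraries, which uses no group, 2108 of 11170 genes passed, 1178 higher and 930 lower. At a minimum change of 1 on the log2 scale, 1010 rose and 443 fell. Groups did not overlap in 2240 genes with the higher level in the labelled knockouts (21.1%) and in 1486 with the lower (14%). Correlations of log2 levels across genes were 0.905 to 0.917 between labelled knockout libraries, 0.955 to 0.957 between controls, and 0.877 to 0.89 across the groups. Genes at 1 TPM or more numbered 10422 to 10690 in the labelled knockouts and 10044 to 10201 in the controls. The median change over all genes tested was 0.12, and the split of calls moved with scaling. Rises made up 57.2% of calls as deposited, 45.4% after quantile normalization (1021 rose, 1227 fell) and 30.3% after centring each library on its median (785 rose, 1806 fell).

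Against the 6 other knockouts of batch 2, 2367 of 13182 genes (18%) passed, 1368 higher (10.4%) and 999 lower (7.58%) in the libraries labelled Cxxc1 knockout. Both comparisons use the same 3 labelled knockout libraries, so their values are set side by side below and not taken as independent. Of 1299 rises against controls tested in both, 689 (53%) also passed as higher here, and of 955 falls 536 (56.1%) as lower. The second comparison is with the mean of the 6 groups, so a gene can pass it and still lie within the range of their libraries.

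The largest rises included 3 neighbouring genes of placental lactogen I, the prolactin-family hormone of trophoblast giant cells. Their promoters are shown because the 3 copies are nearly the same in this window. How reads were assigned among copies of the family is not given in the sources used here, so each single level is uncertain. The promoter of Fgf5, a formative gene that fell, is shown beside them as an example rich in CpG, the sequence that Cxxc1 protein binds. It was not chosen as typical of the genes that fell. The lines give 250 bases before the start site from RefSeq on GRCm38.p6, 5′ to 3′, with each CG in capitals.
Prl3d1, chr13:27093939-27094188, plus strand: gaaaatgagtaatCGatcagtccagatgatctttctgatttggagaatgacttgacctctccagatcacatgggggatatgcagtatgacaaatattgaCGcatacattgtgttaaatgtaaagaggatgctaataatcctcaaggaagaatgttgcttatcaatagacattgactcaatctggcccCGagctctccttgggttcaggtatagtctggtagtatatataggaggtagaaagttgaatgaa
Prl3d2, chr13:27121445-27121694, plus strand: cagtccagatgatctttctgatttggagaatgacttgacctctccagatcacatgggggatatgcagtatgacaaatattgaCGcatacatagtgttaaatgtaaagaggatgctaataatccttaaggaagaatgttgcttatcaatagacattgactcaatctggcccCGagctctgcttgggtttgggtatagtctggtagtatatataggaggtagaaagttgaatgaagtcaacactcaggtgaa
Prl3d3, chr13:27156544-27156793, plus strand: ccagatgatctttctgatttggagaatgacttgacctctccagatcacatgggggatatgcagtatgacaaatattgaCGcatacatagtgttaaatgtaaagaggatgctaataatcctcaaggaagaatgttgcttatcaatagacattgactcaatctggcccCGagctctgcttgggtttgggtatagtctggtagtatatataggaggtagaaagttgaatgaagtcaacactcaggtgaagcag
Fgf5, chr5:98253934-98254183, plus strand: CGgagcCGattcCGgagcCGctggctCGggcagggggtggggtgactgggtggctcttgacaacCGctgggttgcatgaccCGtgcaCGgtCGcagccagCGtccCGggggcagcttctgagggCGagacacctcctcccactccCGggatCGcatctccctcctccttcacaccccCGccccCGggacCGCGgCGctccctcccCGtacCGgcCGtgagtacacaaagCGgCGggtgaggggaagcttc

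The 3 Prl3d promoters were 97.9% to 99.6% identical over their aligned bases and held 3, 2 and 2 CG, while that of Fgf5 held 24. Counts between these were found for Adh1, the largest rise, with 5 CG, and for Tdgf1, a Nodal pathway gene that fell, with 7. Over the 8516 tested genes with a RefSeq promoter, the median number of CG in the window from 250 bases before to 50 bases after the start was 21. For the 1045 genes with a promoter that rose the median was 18, and 12.1% of them held fewer than 5 CG, against 5.24% of all tested. For genes that fell the check is void, because 77.9% of them had a promoter in the table, under the minimum of 80% set for it. The counts of Fgf5 and Tdgf1 are therefore those of single genes and do not describe the falls as a group. A CG count describes the sequence and not whether Cxxc1 protein was bound there.

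Prl3d3 was at 0.603, 0 and 1.44 TPM in controls and at 436, 399 and 419 TPM in the labelled knockouts (log2 difference 8.05, SE 0.44, adjusted p = 2.85e-31). Prl3d1 went from 0.767, 1.74 and 6.46 to 498, 272 and 310 TPM (6.72, SE 0.69, adjusted p = 2.96e-14), and Prl3d2 from 0, 0.415 and 1.80 to 179, 134 and 158 TPM (6.63, SE 0.50, adjusted p = 2.71e-21). All 3 were also higher than in the other knockouts of the batch, by 5.57, 3.16 and 3.65 on the log2 scale. Controls of other batches reached 5930 TPM of Prl3d1, so a level of this size was not particular to the labelled knockouts within the screen.

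The 12 largest rises took in genes of several kinds. Of these 12, 10 also passed as higher than in the other knockouts, beside 53% of all rises. The 12 were picked by their rise in the same labelled knockout libraries, so the choice itself can raise that share. Adh1, an alcohol and retinol dehydrogenase (chr3:138260991-138290698 on mm10), was listed at 0 in every control and stood at 460, 488 and 476 TPM in the labelled knockouts. No library of the other knockouts of batch 2 exceeded 33.8 TPM of Adh1, and no control of another batch exceeded 41.9 TPM. Havcr1 and Timd2, neighbouring genes of the Tim family of surface receptors, were at 71.0 to 86.8 and 81.1 to 141 TPM, against at most 0.195 and 2.24 TPM in controls. Slc15a2, an oligopeptide transporter, was at 42.8 to 69.9 TPM against at most 0.247 TPM. Crxos, a homeobox gene, rose from 14.6 ± 9.5 to 627 ± 29 TPM (SD, n = 3 each). Klk7, a secreted protease, was listed at 0 in controls and at 33.9 to 57.0 TPM in the labelled knockouts. Adh1, Havcr1, Slc15a2 and Klk7 were under 1 TPM in every control, so they entered the test through the labelled knockouts alone.

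Genes known from the earliest embryo were among the rises as well. Pramel6 and Pramel7, of the Prame-like family, were listed at 0 in every control, and at 32.6, 40.9 and 48.2 TPM and 29.8, 69.9 and 41.6 TPM in the labelled knockouts. Khdc1b, an oocyte and early-embryo gene, was listed at 0 in controls and at 10.1 to 24.9 TPM in the labelled knockouts. Krtdap, a gene of keratinising epithelium, went from 1.13 ± 1.74 to 53.1 ± 15.6 TPM (SD, n = 3 each), and no other knockout library of the batch exceeded 16.6 TPM. Of 16 genes of the 2-cell stage list, 3 could be tested. Pramel6 and Pramel7 rose and Tcstv3, at 2.87 to 5.24 TPM in controls, was listed at 0 in the labelled knockouts. Khdc1b and these 3 genes were each under 1 TPM in every library of the lower group. They entered the test through the other group alone. Dux, Zfp352 and the Zscan4 genes, which mark the 2-cell state, were at 0 in all 6 libraries.

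Ctsll3 and Dmkn, also among the largest rises, did not pass against the other knockouts. Ctsll3, a cathepsin-like protease of the placental cluster, went from at most 0.133 TPM in controls to 121 to 168 TPM and entered the test through the labelled knockouts alone. In the other knockouts it ran from 0.216 to 1233 TPM with a median of 718 TPM, and the difference from them was 0.18 (SE 0.37, adjusted p = 0.781). Dmkn, dermokine, went from 10.3 ± 4.3 to 476 ± 47 TPM (SD, n = 3 each) and ran from 12.9 to 682 TPM with a median of 351 TPM in the other knockouts (0.98, SE 0.40, adjusted p = 0.0746). For both genes the labelled knockouts lay above the batch 2 controls and inside the range of the other knockouts.

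**Figure D2:**
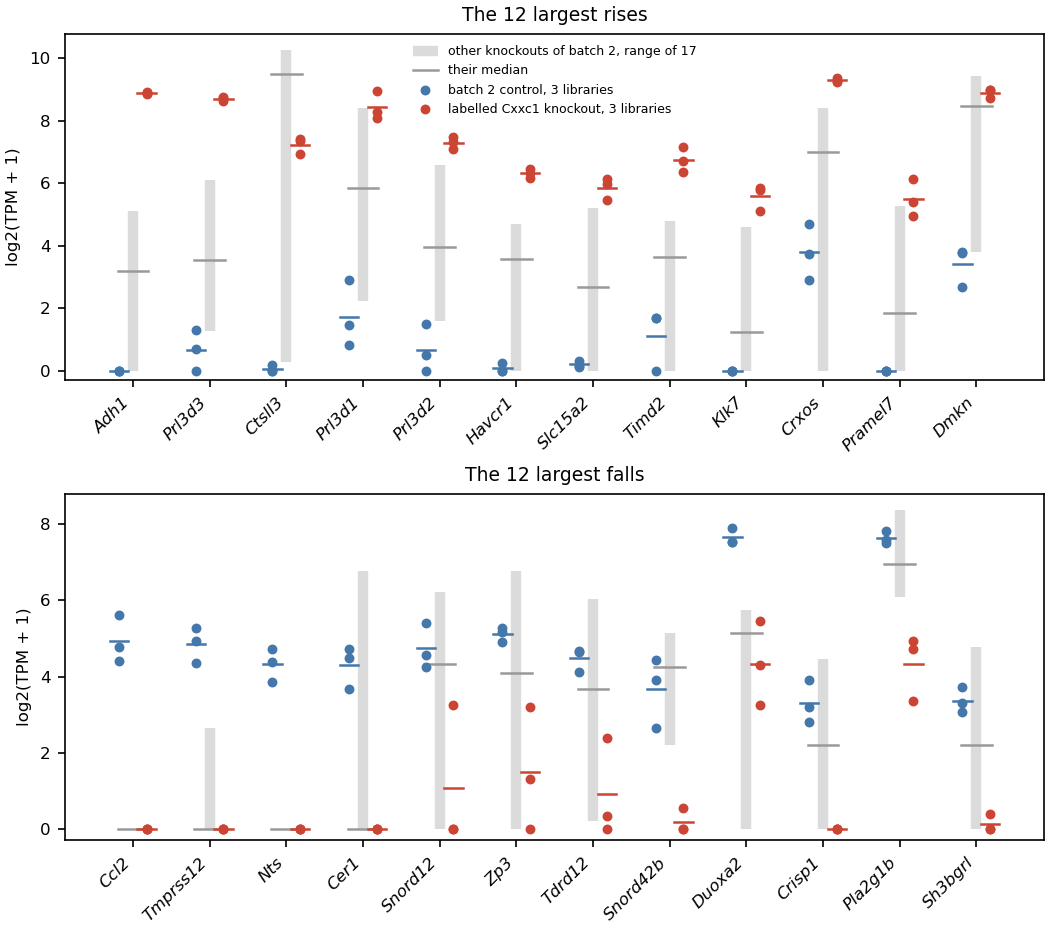
Levels on the log2(TPM + 1) scale of the 12 largest rises and 12 largest falls in the 3 batch 2 controls and the 3 libraries labelled Cxxc1 knockout, with short lines at the group means. Grey bars give the range and grey lines the median of 17 libraries of the other batch 2 knockouts. Adh1 lies above the grey range, while Ctsll3 lies below its median of 718 TPM.

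The largest falls were in part of the same kind. Ccl2, a monocyte-attracting chemokine, was at 20.4, 47.9 and 26.4 TPM in controls and listed at 0 in the labelled knockouts. Nts, the neuropeptide neurotensin, was at 19.8, 25.6 and 13.6 TPM and listed at 0. Both were also at 0 in all 17 libraries of the other knockouts, and controls of other batches reached at most 0.993 and 0.132 TPM. Cer1, a secreted inhibitor of Nodal and BMP from anterior visceral endoderm, was at 25.5, 21.5 and 11.8 TPM in controls and listed at 0 in the labelled knockouts. Its level in the other knockouts ran from 0 to 109 TPM with a median of 0. Ccl2, Nts and Cer1 entered the test through the controls alone. Of the 12 largest falls, 8 also passed as lower than in the other knockouts, beside 56.1% of all falls, and 2 could not be tested there. These 12 were picked by their fall in the same labelled knockout libraries, so their share is not separate support.

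Pla2g1b, a secreted phospholipase, fell from 225, 190 and 182 to 29.5, 9.30 and 25.4 TPM (log2 difference -3.30, SE 0.29, adjusted p = 5.53e-18). All 3 labelled knockouts were below the lowest of the other knockouts of the batch, at 67.3 TPM. Controls of other batches ran from 17.8 to 743 TPM of Pla2g1b. Duoxa2, a maturation factor of the dual oxidase Duox2, fell from 202 ± 31 to 23.3 ± 17.5 TPM (SD, n = 3 each), beside a median of 34.6 TPM in the other knockouts (-0.15, SE 0.30, adjusted p = 0.768). Zp3, a zona pellucida protein of the egg coat, fell from 29.0 to 37.8 TPM in controls to 8.15, 1.47 and 0 TPM. Tdrd12, of the piRNA pathway in germ cells, fell from 16.4 to 24.6 TPM to 0.272, 4.22 and 0 TPM.

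More naive pluripotency genes rose than fell. Of 16 on the list, 15 could be tested, 6 rose and 1 fell, with a median change of 1.00 beside 0.12 over all genes tested. Over all genes tested 12.3% rose and 9.18% fell, and the list counts here and below stand beside these shares. Nanog, listed at 0 in the controls, was at 18.3, 31.6 and 15.7 TPM in the labelled knockouts, within the range of the other knockouts, which reached 40.5 TPM. Dppa3, a maternal factor that protects methylation marks in the zygote, rose from 5.33, 20.7 and 11.1 to 145, 93.8 and 163 TPM (3.47, SE 0.72, adjusted p = 7.85e-05). Every labelled knockout was above the other knockouts of the batch, where Dppa3 was at 0.857 to 34.8 TPM. Controls of other batches reached 659 TPM of Dppa3 (median 18.6), so a level of this size was not particular to the labelled knockouts within the screen. Klf4 rose from 0.561, 3.27 and 1.28 to 6.86, 12.1 and 16.1 TPM (2.29, SE 0.40, adjusted p = 2.07e-06). Klf5 rose from 27.4 ± 1.7 to 69.1 ± 10.9 TPM (SD, n = 3 each; adjusted p = 0.0124, and 0.0529 without Cxxc1 knockout replicate 2). Tbx3 was at most 0.473 TPM in controls and at 1.84 to 3.64 TPM in the labelled knockouts. Nanog and Tbx3, counted among the 6, entered the test through the labelled knockouts alone (adjusted p = 2.6e-10 and 0.00386 with the filter on the screen mean).

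Dppa5a, an RNA-binding protein of pluripotent cells and the most abundant of these genes, rose from 6344 ± 107 to 12457 ± 109 TPM (SD, n = 3 each; 0.97, SE 0.11, adjusted p = 4.52e-13). After quantile normalization it no longer passed (adjusted p = 0.587). Zfp42, also known as Rex1, fell from 174, 240 and 214 to 170, 120 and 154 TPM (-0.50, SE 0.18, adjusted p = 0.0352). That call was lost without Cxxc1 knockout replicate 2 (adjusted p = 0.22) or 3 (0.0515), and without control replicate 2 (0.178) or 3 (0.0909). Esrrb was at 7.03 to 9.68 TPM in controls and 3.32 to 5.10 TPM in the labelled knockouts (adjusted p = 0.239). Of the 6 rises, 5 also passed as higher than in the other knockouts, all but Tbx3, beside 53% of all rises.

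More formative and primed genes fell than rose. Of 18 listed, 12 could be tested, 7 fell and 1 rose, with a median change of -0.84. Fgf5, a growth factor that marks the formative epiblast, fell from 20.8, 22.3 and 19.2 to 3.62, 4.07 and 0.0863 TPM (-2.88, SE 0.47, adjusted p = 5.16e-07). Lef1, a transcription factor of the Wnt pathway, fell from 14.1, 19.9 and 21.9 to 3.13, 2.81 and 1.80 TPM (-2.45, SE 0.32, adjusted p = 5.54e-10). Pou3f1, or Oct6, fell from 20.1, 22.5 and 22.1 to 2.37, 4.52 and 4.90 TPM (-2.24, SE 0.35, adjusted p = 1.73e-07). Otx2, which drives exit from naive pluripotency, fell from 27.2, 26.9 and 16.1 to 7.39, 3.10 and 7.38 TPM (-1.85, SE 0.42, adjusted p = 0.000355). In none of these 4 genes did the groups overlap.

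Dnmt3a and Dnmt3b, the de novo DNA methyltransferases, fell from 24.2 ± 4.7 to 13.2 ± 3.3 TPM (adjusted p = 0.00105) and from 62.4 ± 3.6 to 41.7 ± 7.1 TPM (SD, n = 3 each; adjusted p = 0.0369). The Dnmt3b call was lost without Cxxc1 knockout replicate 1 (adjusted p = 0.165) or 2 (0.0842) and without any 1 control (0.0606 to 0.107). The tight-junction gene Cldn6 fell from 178 ± 17 to 77.7 ± 19.4 TPM (SD, n = 3 each; adjusted p = 0.00116). Podxl, an apical sialomucin that lines the epiblast lumen, was the 1 rise, from 1.46 ± 0.90 to 11.9 ± 5.2 TPM (SD, n = 3 each; 2.35, SE 0.39, adjusted p = 7.7e-07). All 7 falls also passed as lower than in the other knockouts of batch 2, beside 56.1% of all falls, with differences of -0.55 (Dnmt3b) to -2.42 (Fgf5).

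**Figure D3:**
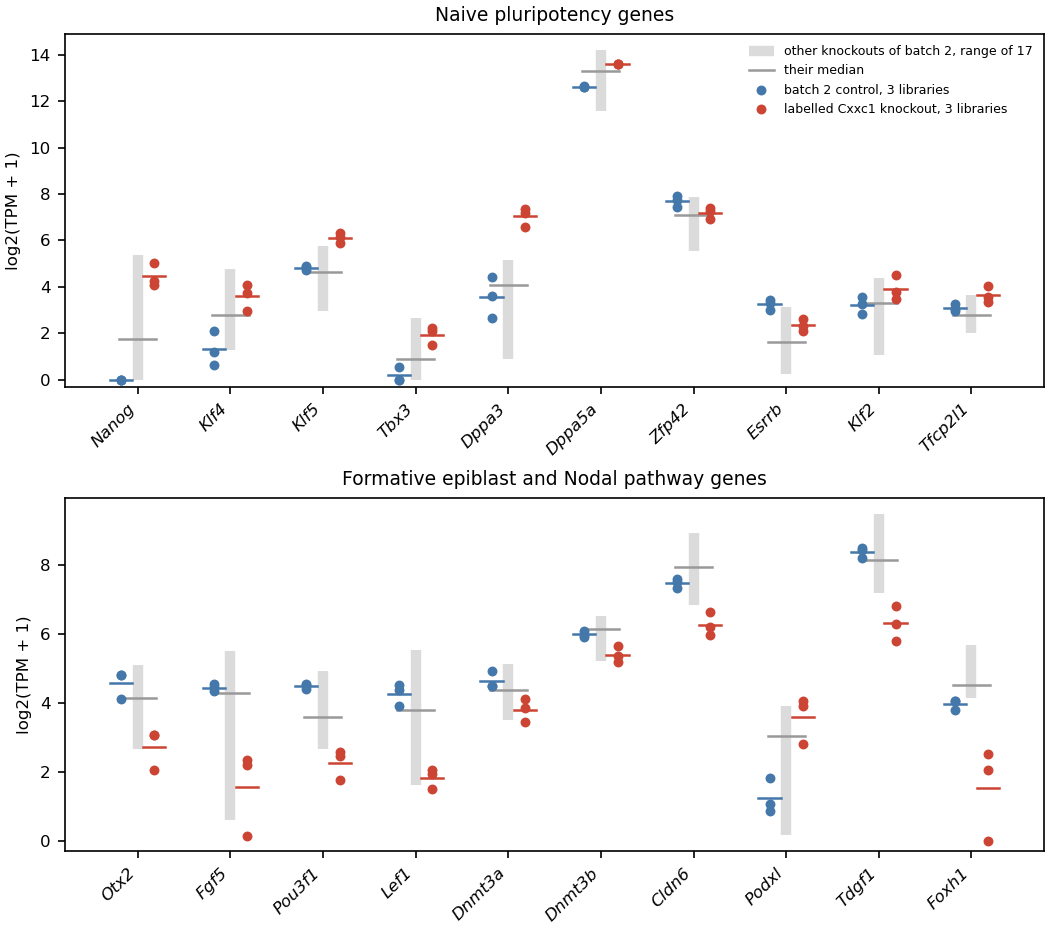
Levels on the log2(TPM + 1) scale of naive genes (top) and of formative and Nodal pathway genes (bottom) in 3 batch 2 controls and 3 libraries labelled Cxxc1 knockout, with lines at group means and grey bars for the range of 17 other knockout libraries. Fgf5, at 19.2 to 22.3 TPM in controls and at most 4.07 TPM in the labelled knockouts, shows the separation of the formative genes.

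Genes of the Nodal pathway, the TGF-beta signal that sustains the epiblast and patterns it, gave 3 falls and 2 rises among 14 tested of 15, with a median change of -0.90. After quantile normalization 6 of them fell and after centring on the median 7, with 1 rise under both. Against the other knockouts of batch 2, 3 of 15 tested were higher and 5 lower, and the median difference was 0.01. Tdgf1, the Nodal co-receptor Cripto, fell from 364, 297 and 346 to 112, 77.4 and 55.0 TPM (-2.08, SE 0.23, adjusted p = 1.89e-12). Foxh1, the DNA-binding partner of Smad2 and Smad3, fell from 12.8, 15.6 and 15.6 to 0, 4.76 and 3.17 TPM (-2.44, SE 0.41, adjusted p = 9.63e-07). The other knockouts were at 144 TPM or more of Tdgf1 and at 16.7 TPM or more of Foxh1, above every labelled knockout. Controls of other batches ran from 26.6 to 355 TPM of Tdgf1 (median 99.2) and from 3.64 to 203 TPM of Foxh1 (median 19.3). The Tdgf1 level of the labelled knockouts was therefore not particular to them within the screen. Skil, a feedback target of the pathway, fell from 91.4 ± 3.8 to 31.3 ± 4.8 TPM (SD, n = 3 each; -1.53, SE 0.30, adjusted p = 2.32e-05). In controls of other batches it was at 6.59 to 116 TPM, with a median of 39.1 TPM. The ligand Nodal was at 6.31 to 11.6 TPM in controls and at 9.52, 1.63 and 1.92 TPM in the labelled knockouts (adjusted p = 0.138). Its inhibitor Lefty1 was at 8.95 to 21.2 and 0.869 to 11.1 TPM (adjusted p = 0.0652). Furin, a protease that matures Nodal, rose from 0.342 to 1.06 TPM in controls to 3.10 to 4.15 TPM (adjusted p = 0.00417). The receptor gene Acvr1b, under 1 TPM in every control and so tested through the labelled knockouts alone, was the other rise, at an adjusted p of 0.0245 that was 0.159 without Cxxc1 knockout replicate 3, 0.0683 without control replicate 2 and 0.0923 without control replicate 3.

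Core epiblast genes did not move in 1 direction. Of 20 tested, 5 rose and 5 fell, with a median change of -0.05. Beside the genes above, Dppa4 fell from 171 ± 25 to 70.1 ± 18.7 TPM (SD, n = 3 each; -1.30, SE 0.16, adjusted p = 1.48e-10) and the adhesion gene Epcam from 526 ± 29 to 342 ± 6 TPM (SD, n = 3 each). Sall4, a zinc finger factor of pluripotent cells, rose from 48.4 ± 2.7 to 88.4 ± 9.0 TPM (SD, n = 3 each; adjusted p = 0.00457, and 0.102 after centring on the median). Without Cxxc1 knockout replicate 3, control replicate 2 or control replicate 3, 3 genes fell.

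Genes of the primitive endoderm, the layer that covers the epiblast and lays down its basement membrane, gave rises and no falls. Of 25 listed, 21 could be tested, 12 rose and 0 fell, with a median change of 1.42, beside 12.3% and 9.18% of all genes tested. Of the 12, Pdgfra was under 1 TPM in every control and entered the test through the labelled knockouts alone. Its limma adjusted p was 4.01e-08 with the filter on the screen mean. At an unadjusted p under 0.05, 15 were higher and 0 lower, and after centring on the median 11 rose and 2 fell. Lama1, a laminin chain, rose from 1.82, 0.705 and 0.629 to 29.6, 36.5 and 33.7 TPM (4.10, SE 0.35, adjusted p = 4.39e-18). The type IV collagens Col4a1 and Col4a2 rose from 3.80 ± 0.45 to 35.8 ± 7.8 TPM and from 2.39 ± 1.40 to 35.9 ± 9.7 TPM (SD, n = 3 each). Dab2, an endocytic adaptor, rose from 57.0, 48.9 and 39.9 to 274, 215 and 294 TPM (2.40, SE 0.34, adjusted p = 8.37e-09). The lineage factor Gata6 rose from 0, 1.32 and 0 to 13.7, 10.2 and 6.50 TPM (3.02, SE 0.45, adjusted p = 3.33e-08). Gata4 rose from 1.08 to 1.62 TPM to 3.69 to 13.1 TPM, a call lost without Cxxc1 knockout replicate 3 (adjusted p = 0.0787).

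The rise was not common to all genes of that layer. Apoe was at 656 ± 23 TPM in controls and 625 ± 28 TPM in the labelled knockouts (SD, n = 3 each). Sox17, at 1.33 to 2.75 and 3.64 to 7.67 TPM, was higher without overlap but did not pass (1.21, adjusted p = 0.0576). Hnf4a, at most 0.496 TPM in controls and at 0 in every labelled knockout, could not be tested. Against the other knockouts of batch 2, 7 of 24 tested were higher and 5 lower, and the median difference was 0.02. The 7 were Lama1, Col4a1, Col4a2, Lamc1, Dab2, Lrp2 and Gata6, and the 5 were Apoa1, Apoe, Amn, Rbp4 and Cited1. Sparc, an extracellular matrix protein, rose from 172 ± 12 to 462 ± 22 TPM (SD, n = 3 each) against controls and differed from the other knockouts by 0.03 (SE 0.11, adjusted p = 0.895). Summed over the list, the other knockouts reached 1016 to 3633 TPM.

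Trophectoderm and extraembryonic ectoderm genes, 17 tested of 19, gave 7 rises and 2 falls, with 4 rises after centring on the median, without Cxxc1 knockout replicate 3 or without control replicate 3. Beside Prl3d1, Plac1, a placental surface gene, rose from 103, 66.7 and 104 to 728, 750 and 758 TPM (3.05, SE 0.24, adjusted p = 7.39e-20). Gata2, a trophoblast transcription factor, rose from 4.18, 0.968 and 6.05 to 21.0, 24.1 and 13.3 TPM (2.26, SE 0.53, adjusted p = 0.000516). Krt8, a simple-epithelium keratin, rose from 1081 ± 9 to 1577 ± 119 TPM (SD, n = 3 each; adjusted p = 0.000776, and 0.112 after centring on the median). Bmp4, a signal from extraembryonic ectoderm to the epiblast, fell from 145, 138 and 122 to 29.5, 22.8 and 18.4 TPM (-2.49, SE 0.36, adjusted p = 1.38e-08). The lineage factors Hand1 (216 ± 13 and 188 ± 22 TPM), Elf5 (79.8 ± 5.2 and 74.4 ± 8.2 TPM) and Eomes (42.8 ± 8.3 and 32.4 ± 0.9 TPM) did not pass (SD, n = 3 each; adjusted p = 0.656, 0.804 and 0.418). Plac1, Gata2 and Bmp4 did not pass against the other knockouts, with differences of 0.14, 0.66 and 0.31 (adjusted p = 0.657, 0.262 and 0.458).

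**Figure D4:**
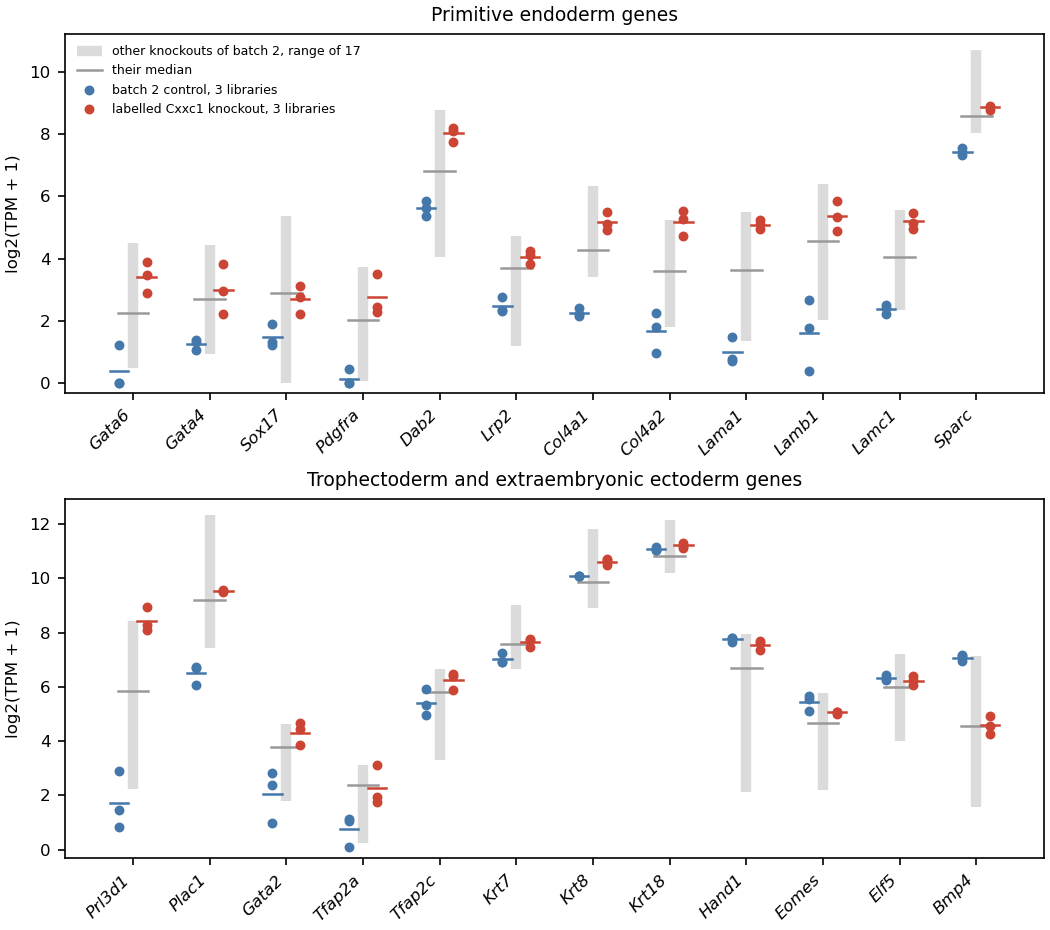
Levels on the log2(TPM + 1) scale of primitive endoderm genes (top) and trophectoderm and extraembryonic ectoderm genes (bottom) in 3 batch 2 controls and 3 libraries labelled Cxxc1 knockout, with lines at group means. Grey bars give the range of 17 libraries of other batch 2 knockouts, which for Sparc (from 262 TPM) and Plac1 (from 173 TPM) starts above all 3 controls.

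Genes of the machinery in which Cxxc1 works passed about as often as genes in general. Of 18 genes for subunits of H3K4 methyltransferase complexes, all tested, 3 rose and 1 fell, beside 21.4% of all genes tested, with a median change of 0.30. Ash2l, a core subunit shared by these complexes, fell from 138, 157 and 151 to 116, 84.3 and 79.7 TPM (-0.69, SE 0.13, adjusted p = 3.17e-05) and was lower than in the other knockouts by 0.67. Kmt2c, an enhancer methyltransferase, was at 0.577, 0.769 and 0.714 TPM in controls and 4.01, 6.43 and 10.7 TPM in the labelled knockouts. It is counted among the rises, but entered the test through the labelled knockouts alone (adjusted p = 3.04e-06 with the filter on the screen mean). Ncoa6, a coactivator in the Kmt2c and Kmt2d complexes, rose from 1.76 ± 0.39 to 6.57 ± 1.25 TPM (SD, n = 3 each; adjusted p = 0.0082). Setd1b, a catalytic partner of Cxxc1, was at 0.833, 1.35 and 0.768 TPM in controls and 1.90, 3.59 and 2.15 TPM in the labelled knockouts (0.82, SE 0.30, adjusted p = 0.0352). Its call was lost without Cxxc1 knockout replicate 2 (adjusted p = 0.192), control replicate 1 (0.0968) or control replicate 3 (0.111), and after quantile normalization (0.305). After quantile normalization 2 subunits rose and 3 fell, and after centring on the median 2 rose and 4 fell.

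Setd1a, the other catalytic partner, was at 1.37 to 2.46 TPM in controls and 4.03 to 6.07 TPM in the labelled knockouts (1.00, adjusted p = 0.0537). Wdr82, which with Cxxc1 distinguishes the Setd1 complexes, was at a mean of 9.93 ± 3.64 and 14.2 ± 5.0 TPM (SD, n = 3 each; adjusted p = 0.469). Dpy30, a subunit of all these complexes, was at 647 to 668 and 480 to 684 TPM (adjusted p = 0.131). By limma, 0 of 8 tested genes on the H3K4 demethylase list passed, which also holds the cofactor genes Rcor1 and Rcor2. Of 9 tested genes for other proteins with a CXXC domain 0 passed, with Kdm2b on both lists. At an unadjusted p under 0.05, 1 of the former (Kdm5a) was lower and 2 of the latter (Tet1 and Tet3) were higher. After quantile normalization or centring on the median 1 gene of the demethylase list fell. Without 1 of the libraries at most 1 gene of the demethylase list fell and at most 1 of the CXXC list rose. Genes of DNA methylation, 14 tested, also passed about as often as the 21.4% of all genes tested, with 1 rise, 2 falls and a median change of -0.02. Tet2, which oxidises 5-methylcytosine, rose from 1.85 ± 0.75 to 7.37 ± 2.34 TPM (SD, n = 3 each; 1.54, SE 0.35, adjusted p = 0.0003), and the 2 falls were Dnmt3a and Dnmt3b. Dnmt1, the maintenance methyltransferase, was at 12.9 ± 1.2 and 11.4 ± 1.8 TPM (SD, n = 3 each; adjusted p = 0.792).

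Genes of energy metabolism split by pathway. Of 21 genes of glycolysis and the hypoxia response, all tested, 10 fell and 2 rose, with a median change of -0.86. Among the 10, Egln3 was under 1 TPM in every labelled knockout and entered the test through the controls alone. Its limma adjusted p was 0.0045 with the filter on the screen mean. Ldha, lactate dehydrogenase, fell from 1155, 1139 and 1098 to 451, 516 and 474 TPM (-1.24, SE 0.13, adjusted p = 6.99e-14). The lowest of the other knockouts was at 956 TPM of Ldha and the lowest control of another batch at 768 TPM. Eno1, enolase, fell from 2874 ± 99 to 1174 ± 59 TPM, and Pkm, pyruvate kinase, from 786 ± 26 to 357 ± 65 TPM (SD, n = 3 each). The glucose transporter Slc2a1 fell from 171 ± 13 to 88.3 ± 4.3 TPM, while Slc2a3, another glucose transporter, rose from 11.4 ± 1.3 to 48.6 ± 8.6 TPM (SD, n = 3 each; adjusted p = 0.000302). The other rise was the hexokinase gene Hk2, a call lost without Cxxc1 knockout replicate 1 (adjusted p = 0.0767) or control replicate 3 (0.0753). Of the 10 falls, 9 also passed as lower than in the other knockouts, beside 56.1% of all falls.

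Of 24 genes of oxidative phosphorylation, 9 rose and 1 fell, with a median change of 0.22. Cox5a, a subunit of cytochrome c oxidase, rose from 1485 ± 82 to 2262 ± 257 TPM (SD, n = 3 each; 0.60, SE 0.09, adjusted p = 1.7e-07). Sdhd, which anchors succinate dehydrogenase in the membrane, fell from 449, 492 and 468 to 239, 203 and 227 TPM (-1.07, SE 0.12, adjusted p = 7.42e-12), below the lowest of the other knockouts at 318 TPM. The rises depended on scaling: 8 passed after quantile normalization and 0 after centring on the median, while Sdhd fell under both.

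Genes of ribosomes and of their assembly gave falls and no rises. Of 26 cytosolic ribosomal protein genes 12 fell and 0 rose, with a median change of -0.20, 7 falling and 1 rising after quantile normalization and 21 falling after centring on the median. Rpl4 fell from 4671, 4506 and 4172 to 2891, 2812 and 2616 TPM (-0.68, SE 0.07, adjusted p = 1.56e-14), below the lowest of the other knockouts at 3294 TPM. At an unadjusted p under 0.05, 14 were lower and 1 higher. Of 24 genes of ribosome biogenesis 10 fell and 0 rose (median -0.31), and 10 were lower and 0 higher at an unadjusted p under 0.05. Dkc1, the pseudouridine synthase of ribosomal RNA, fell from 189, 165 and 180 to 93.2, 43.5 and 55.7 TPM (-1.53, SE 0.18, adjusted p = 7.88e-12). Npm1, nucleophosmin, fell from 5070 ± 123 to 2751 ± 28 TPM (SD, n = 3 each; -0.88, SE 0.09, adjusted p = 2.81e-13).

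Genes of proliferation gave falls and no rises. Of 22 mitosis genes 13 fell and 0 rose (median -0.82), and of 24 DNA replication genes 13 fell and 0 rose (median -0.64). At an unadjusted p under 0.05, 16 and 15 of them were lower and 0 higher. Ccnb1, cyclin B1, fell from 562, 585 and 536 to 282, 288 and 325 TPM (-0.91, SE 0.12, adjusted p = 1.94e-09), and the kinase Aurka from 214 ± 11 to 96.7 ± 23.7 TPM (SD, n = 3 each). Pcna, the replication clamp, fell from 621, 628 and 563 to 313, 345 and 229 TPM (-1.05, SE 0.12, adjusted p = 1.46e-11). Rrm2, a ribonucleotide reductase subunit, fell from 783 ± 44 to 362 ± 49 TPM (SD, n = 3 each), and differed from the other knockouts by 0.08 (adjusted p = 0.621). In each of these lists 10 of the 13 falls also passed as lower than in the other knockouts, beside 56.1% of all falls.

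Inhibitors and regulators of the cell cycle moved on both sides. Cdkn1a, the p21 inhibitor and a target of p53, rose from 119, 111 and 98.5 to 216, 216 and 214 TPM (0.97, SE 0.13, adjusted p = 1.99e-09), above every one of the other knockouts, which reached 208 TPM. Trp53 itself fell from 282 ± 6 to 187 ± 29 TPM (SD, n = 3 each; adjusted p = 0.0058, and 0.0533 without Cxxc1 knockout replicate 1). Of 20 tested genes on the list of p53 targets, 2 rose and 6 fell against the controls, while against the other knockouts 8 were higher and 2 lower. That list also holds Trp53 itself, which is counted among the falls and among the lower genes. Mdm2, the p53 ubiquitin ligase, was at 172 ± 15 TPM in controls and 118 ± 6 TPM in the labelled knockouts (SD, n = 3 each; -0.54, adjusted p = 0.115), and was higher than in the other knockouts by 0.94 (adjusted p = 9.7e-05). Ccnd2, a G1 cyclin, rose from 0.777 to 2.54 TPM to 7.02 to 11.4 TPM (adjusted p = 0.000155), and Cdk4 fell from 456 ± 18 to 266 ± 50 TPM (SD, n = 3 each).

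Autophagy and lysosome genes formed the list with the largest share of rises among lists of at least 10 tested members, 13 of 21 tested and 0 falls (14 higher and 0 lower at an unadjusted p under 0.05), with a median change of 0.77. Gabarapl2, which coats autophagosome membranes, rose from 258, 285 and 231 to 1041, 954 and 958 TPM (1.93, SE 0.13, adjusted p = 9.09e-25). No other library of the batch 2 knockouts exceeded 525 TPM of Gabarapl2 and no control of another batch 432 TPM. Psap, the precursor of lysosomal saposins, rose from 35.3 ± 4.3 to 127 ± 15 TPM, and the protease Ctsl from 248 ± 12 to 564 ± 46 TPM (SD, n = 3 each). Map1lc3b, the autophagosome protein LC3B, rose from 147 ± 6 to 245 ± 27 TPM (SD, n = 3 each; adjusted p = 1.02e-07). After quantile normalization 12 rose and after centring on the median 9 rose and 1 fell. Of the 13 rises 5 also passed as higher than in the other knockouts, a smaller share than the 53% of all rises.

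**Figure D5:**
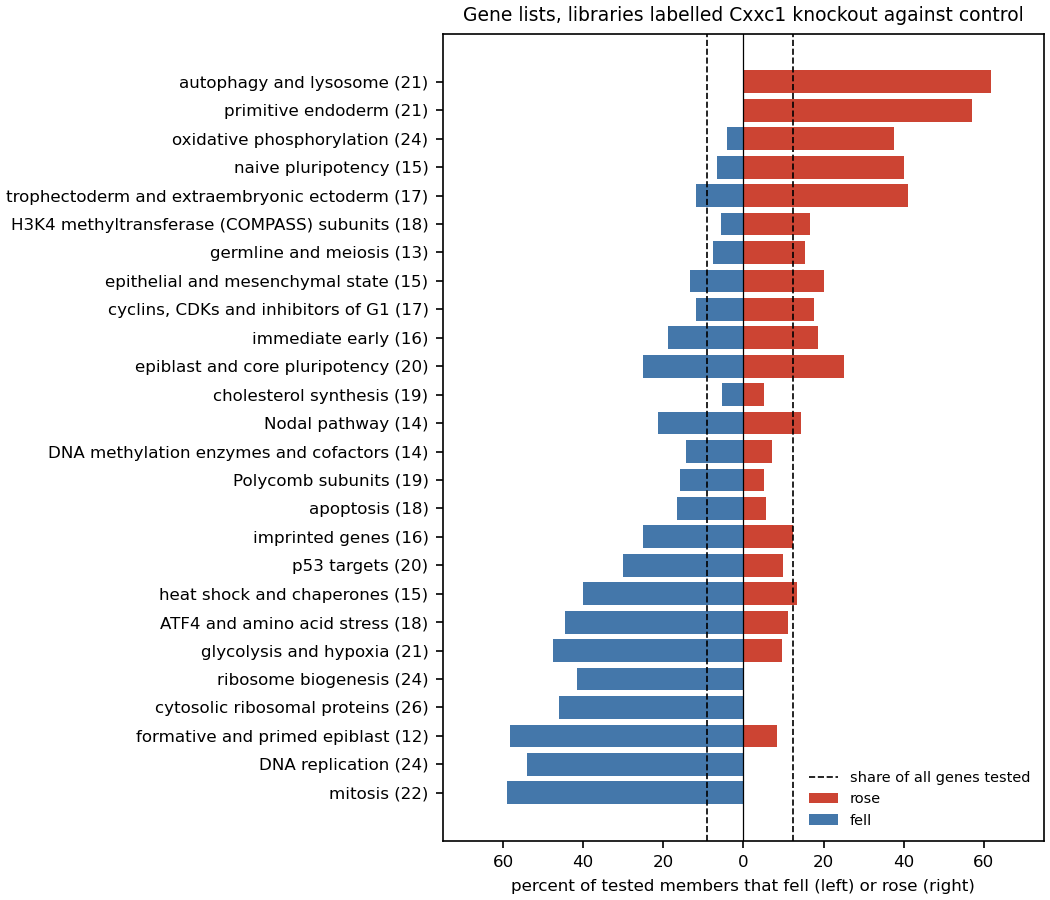
Share of tested members, in percent, that rose (right) or fell (left) in the libraries labelled Cxxc1 knockout against batch 2 controls, for the gene lists with at least 10 tested members (numbers in brackets), each gene judged by its adjusted p. Dashed lines mark the shares over all genes tested, 12.3% rising and 9.18% falling; autophagy and lysosome genes lie at the rising end and mitosis genes at the falling end.

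Genes of stress responses were mixed. Hspb1, the small heat shock protein Hsp27, rose from 486, 392 and 466 to 1669, 1511 and 1468 TPM (1.79, SE 0.12, adjusted p = 1.97e-25), while 6 of 15 tested chaperone genes fell, among them Hsph1 from 99.7 ± 8.7 to 49.1 ± 4.4 TPM (SD, n = 3 each). The endoplasmic reticulum chaperone Hspa5 was the other rise, from 267 ± 18 to 456 ± 39 TPM (SD, n = 3 each). After quantile normalization 4 chaperone genes fell. Of 18 tested genes of the Atf4 amino acid response 8 fell and 2 rose, the rises being Atf3 and Ddit3. At least 1 of these 2 was lost without any 1 of the 6 libraries, and both without control replicate 2 or 3, after centring on the median, in the fit of batch 2 libraries only and with a pseudocount of 0.1. Slc7a3, an arginine and lysine transporter, fell from 136 ± 3 to 37.6 ± 7.1 TPM (SD, n = 3 each; -1.84, SE 0.29, adjusted p = 1.97e-07). Asns, asparagine synthetase, fell from 422 ± 34 to 214 ± 24 TPM (SD, n = 3 each) and differed from the other knockouts by -0.10 (adjusted p = 0.599).

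Imprinted genes, which are expressed from 1 parental allele under DNA methylation marks, gave 2 rises and 4 falls among 16 tested of 22. The share of rises was near that over all genes tested, where 12.3% rose and 9.18% fell. Phlda2, a placental growth restrainer, rose from 355, 360 and 286 to 1341, 1391 and 1128 TPM (1.94, SE 0.13, adjusted p = 3.24e-24), and stood at a median of 1145 TPM in the other knockouts (0.08, SE 0.10, adjusted p = 0.612). Mest fell from 86.8, 102 and 69.2 to 12.1, 12.6 and 31.9 TPM (-2.25, SE 0.36, adjusted p = 3.42e-07) and was lower than in the other knockouts by 1.62. Grb10, an adaptor that restrains growth signals, fell from 20.9, 12.9 and 7.08 to 3.19, 3.56 and 2.11 TPM (adjusted p = 0.00351, and 0.0503 without control replicate 1). Without control replicate 1, 1 imprinted gene fell, and without Cxxc1 knockout replicate 3, 2 fell and 1 rose. Total levels do not show from which allele the transcripts came.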

How the data were processed

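The authors deposited TPM values of polyadenylated RNA amplified from small pools of cells; per the submitters' processing notes, the tools were HISAT2 2.2.1, Cufflinks and StringTie 2.2.1 on mm10, with no role stated for each. The tables hold no counts, so sequencing depth and counting error are unknown; columns summed to 984852 to 993356 TPM.

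The log2(TPM + 1) values of 146 screen libraries in 50 groups were fitted with limma 3.58.1 in R 4.3.3 (eBayes with trend), after 3 near-identical Aurkb libraries (r = 0.999) were averaged. Genes that reached 1 TPM in 3 or more compared libraries were tested, with Benjamini-Hochberg adjustment over all of them and a threshold of 0.05. A change on this scale understates that of low genes, and none is given where a group is listed at 0. The libraries labelled Cxxc1 knockout were compared with batch 2 controls and with the equally weighted mean of the 6 other batch 2 knockouts. The script was tested on simulated data. Alternatives were another pseudocount, filter, scaling or set of fitted libraries, library weights, a 2-fold minimum, the replicate number as a block, protein-coding genes only and leaving out each library.

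The members and lists were chosen with earlier results of these data known. Named genes were Cxxc1, the 12 largest rises and 12 largest falls with separate groups and a mean of 5 TPM or more in the higher group, the 6 largest each way that passed both comparisons, up to 4 members per list, and listed methylation enzymes; further list members were named after their values were seen. Positions of genes on mm10 are those of GENCODE vM21 (24183 of 25006 symbols matched) and promoters those of RefSeq. Other software was the R package data.table, version 1.17.8, pandas 2.3.3 and matplotlib 3.10.9 in Python 3.11.15.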

Additional observations from a re-analysis of the deposited data

How the results depend on the processing

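The number of genes that passed against controls stayed within 1.5 times the reported 2275 under each alternative but the 2-fold minimum, which left 1453; leaving out 1 library gave 2016 to 2114 (with genes that reached 1 TPM in 2 or more libraries). Against the other knockouts 2367 became 1373 in the fit of batch 2 libraries only and 1846 to 1880 without 1 labelled knockout. Cxxc1 kept a difference of 1.86 in the fit of batch 2 libraries only but no longer passed (adjusted p = 0.103); without 1 library the difference was 1.44 to 2.12. Kmt2a and Kmt2d, which did not pass, changed sign after quantile normalization (-0.21 and -0.18) and after centring on the median (-0.13 and -0.054), and Rplp0 after quantile normalization (0.0081); the cause was not tested. Equal replicate numbers did not pair the libraries (correlations of deviations from group means of -0.01 to 0.01), and with the replicate number as a block in the 6 libraries 1643 genes passed, with Cxxc1 at 1.86 (adjusted p = 0.0369). Of 218 named or listed genes that passed, 184 kept their call in the fit of batch 2 libraries only, 199 after quantile normalization, 188 after centring on the median and 186 with the block. Centring on the median and protein-coding genes only were added after seeing the data.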
